A study of Mus musculus and Homo sapiens with 16 samples.

Results

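In E17.5 mouse skin epithelium, 3249 stretches of chromatin carried the acetylated histone mark H3K27ac, were open in ATAC-seq, lay away from gene starts and had no KLF5 peak. They were taken from the deposited H3K27ac peaks on chromosomes 1 to 19, X and Y by 3 conditions: overlap with an E17.5 ATAC peak by at least 1 bp, no overlap with an E17.5 KLF5 peak, and a summit more than 1 kb from every gene start of the deposited gene table. They made up 17.9% of the 18120 H3K27ac peaks on these chromosomes and 60.9% of the 5331 active distal peaks. The other 2082 active distal peaks overlapped a KLF5 peak, and 5715 promoter peaks were open and free of KLF5. The elements were thus chosen by measured peak positions, so what follows on peak overlap, height and width is a description without a test. Measured RNA took no part in the choice.

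The peaks came from 1 C57BL/6 sample labelled wild type for each of the H3K27ac, KLF5 and ATAC assays, sorted from E17.5 epidermis as DAPI-, CD45- and integrin A6+ cells. For ATAC, the genotype label reads wild type although the title says Het. RNA came from 3 Klf5+/- libraries (Het) and 3 labelled Klf5-/- (KO), all C57BL/6 and sorted by the same markers at E17.5. A further RNA set of C57BL/6 skin epithelium, titled HFD (not spelled out in the labels) had 2 libraries labelled Klf5+/- and 2 labelled Klf5-/-, with no sort and no stage given. The controls of both sets thus carried 1 Klf5 allele, while the genotype label of the peak samples is wild type. The names of all 3 peak lists contain the word MERGE, and what was merged is not stated. No Cre driver or deleted interval is given in the labels, and it is not stated whether libraries of 1 group are from different animals. The p-values therefore cover the spread between libraries, which may be technical.

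KLF5 is a zinc-finger transcription factor of epithelia that binds GC-rich and CACCC-type DNA. Distal enhancers are bound by sets of factors, and when active their flanking nucleosomes carry H3K27ac and their centres are open to the transposase used in ATAC-seq. An enhancer can act on a gene other than the nearest one, so the nearest gene start is a naming rule and not a measured target.

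The sorted cells had epidermal RNA. Among 6 keratinocyte markers Krt5 stood at 5461 to 7851 and Trp63 at 56.0 to 63.5 RPKM (reads per kilobase of exon, scaled to library size) over the 6 E17.5 libraries. The 3 endothelial markers together reached at most 0.419 RPKM and the 3 muscle markers at most 0.0825 RPKM, while the 4 melanocyte markers summed to 145 to 178 RPKM. Gene counts per library ran from 34486898 to 46445546 at E17.5 and from 31819010 to 44336888 in the HFD set. Klf5 RNA was no lower in KO than in Het. Its counts at E17.5 were 8376, 6609 and 6624 in Het and 6934, 7211 and 6501 in KO. In the HFD set they were 2523 and 1575 in Het and 2953 and 4956 in KO. The exons deleted are not known here, so these counts neither check nor replace the labels, and every direction below rests on them.

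The label distal held only in part. RefSeq lists starts that the deposited gene table, with 1 start for each gene, does not have. A RefSeq start window (250 bases before to 50 after a start, GRCm38.p6, the build of the peaks) overlapped 421 of the 3249 elements, or 13.0%, and for 356 of these elements the start was that of a protein-coding gene. Of the distal elements with KLF5, 181 (8.69%) overlapped one. The 421 elements were wider and stronger than the other 2828, with a median width of 634 against 366 bp and a median H3K27ac fold of 4.06 against 3.32. Fold is the authors' enrichment at the summit over local background. Of the KLF5-free elements in the top quartile of this fold (3.89 to 8.70), 29.4% overlapped a RefSeq start window, against 6.40% in the lowest quartile. The distal elements with KLF5 in the same fold ranges gave 14.6% and 3.81%.

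The upstream sequences of 5 such starts are printed here because these elements are the part of the class that can be read as DNA, and they show start sites that entered a distal class. They are the 3 with the highest H3K27ac fold and 2 of genes on the lists used here, Sphk1 and Runx1. Each is the 160 bases before a RefSeq start, from RefSeq (GRCm38.p6), 5′ to 3′ on the strand of the gene. Capitals mark the GC box GGGNGGG, the CACCC-type motif GGGTGTG and the AP-1 motif TGANTCA, on either strand.
Zfp445, chr9:122866007-122866166, minus strand: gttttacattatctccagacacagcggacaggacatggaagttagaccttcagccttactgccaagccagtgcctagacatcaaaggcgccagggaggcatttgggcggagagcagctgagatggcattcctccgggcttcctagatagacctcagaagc
Cdca7l, chr12:117843701-117843860, plus strand: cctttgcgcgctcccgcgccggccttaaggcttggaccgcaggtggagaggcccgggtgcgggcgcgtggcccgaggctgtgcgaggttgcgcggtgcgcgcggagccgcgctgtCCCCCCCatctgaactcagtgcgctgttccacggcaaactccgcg
Trp53inp2, chr2:155381696-155381855, plus strand: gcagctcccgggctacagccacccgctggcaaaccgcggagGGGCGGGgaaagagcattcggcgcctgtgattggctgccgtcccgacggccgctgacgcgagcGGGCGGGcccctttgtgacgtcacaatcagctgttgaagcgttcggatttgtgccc
Sphk1, chr11:116532291-116532450, plus strand: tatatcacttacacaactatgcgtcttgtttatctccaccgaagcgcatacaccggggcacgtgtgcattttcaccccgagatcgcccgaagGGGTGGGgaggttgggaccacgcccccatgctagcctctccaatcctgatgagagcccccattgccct
Runx1, chr16:92697330-92697489, minus strand: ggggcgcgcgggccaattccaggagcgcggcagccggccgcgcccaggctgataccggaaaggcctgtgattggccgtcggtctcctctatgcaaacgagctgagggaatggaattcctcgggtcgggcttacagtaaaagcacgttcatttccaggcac

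The elements at Zfp445 (a KRAB zinc-finger gene), Cdca7l (a nuclear protein related to CDCA7) and Trp53inp2 (an autophagy regulator) had folds of 7.38, 7.07 and 6.98. The deposited starts of Zfp445 and Trp53inp2 lay 3739 and 1034 bp from the H3K27ac summits, and the Cdca7l element was filed under Gm20613, 9399 bp away. The nearest KLF5 peaks lay 59723, 14598 and 105021 bp from the 3 elements. Sphk1 encodes a kinase that makes sphingosine 1-phosphate. Its element (fold 4.78) lay 1773 bp downstream of the deposited start, and the nearest KLF5 peak was 41634 bp away. Runx1 encodes a transcription factor active in hair follicle stem cells. The element at its RefSeq start (fold 4.11) was filed under Gm26626, 84769 bp away, so the nearest-gene rule gave Runx1 no element at all. The 160 bases held 2 GC boxes at Trp53inp2, 1 each at Cdca7l and Sphk1, and none at Zfp445 and Runx1. Their GC content was 53.8% (Zfp445), 73.1% (Cdca7l), 67.5% (Trp53inp2), 56.9% (Sphk1) and 62.5% (Runx1). Neither GGGTGTG nor TGANTCA occurred in any of the 5, on either strand. The shorter string CACCC was not searched for, and it does occur in some of them, such as Trp53inp2 and Sphk1.

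Over all 499 RefSeq start windows under KLF5-free distal elements (an element can touch more than 1), the GC box GGGNGGG was found in 64.1%. It was in 73.6% of the 220 windows under distal elements with KLF5 and in 48.1% of all 32817 RefSeq start windows. GGGTGTG was in 7.41%, 14.1% and 7.95% of the same windows, and AP-1 in 7.21%, 11.8% and 7.81%. The ETS motif CCGGAAG went the other way, with 16.6% in the KLF5-free windows, 9.55% in those with KLF5 and 8.86% in all. The median GC content was 60.7% in the KLF5-free windows, 62.5% in those with KLF5 and 52.7% in all. The GC box shares followed this order, while those of GGGTGTG, AP-1 and the ETS motif did not. The part of base composition in the shares was not tested. In windows of 45 to 55% GC the GC box share of the KLF5-free windows was 44.4%. This value is not comparable with the shares above, which cover windows of any GC content. A match is a string of letters, not a bound site, and the windows away from RefSeq starts were not analysed here.

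MicroRNA genes gave a second set of readable sequences. Of the KLF5-free elements, 28 (0.862%) lay within 5 kb of a RefSeq microRNA hairpin, against 12 (0.576%) of the distal elements with KLF5. The mature forms of 6 hairpins with known roles are shown with the seed, bases 2 to 8, in capitals.
mmu-miR-21a-5p: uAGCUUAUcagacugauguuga
mmu-miR-221-3p: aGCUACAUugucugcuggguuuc
mmu-miR-222-3p: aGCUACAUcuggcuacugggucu
mmu-miR-193b-3p: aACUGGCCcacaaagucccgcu
mmu-let-7e-5p: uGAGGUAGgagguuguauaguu
mmu-miR-125a-5p: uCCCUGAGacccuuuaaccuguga

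The element near Mir21a (fold 3.20) lay 2879 bp from the hairpin, with the nearest KLF5 peak 102223 bp away. miR-21 is raised in many proliferating epithelia. A single element (fold 4.89) lay near both Mir221 and Mir222, 4450 and 3867 bp away, and the 3p forms of this pair share the seed GCUACAU. Its nearest KLF5 peak was 274374 bp away. Mir193b had 2 elements, 2141 and 1116 bp from the hairpin, and 2 others lay beside the joint Mirlet7e and Mir125a locus. MicroRNA levels were not analysed here.

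KLF5-free distal elements were narrower and weaker than distal elements with KLF5 in the same lists. Their median H3K27ac width was 389 bp against 555 bp, their median H3K27ac fold 3.38 against 3.59, and the median fold of the strongest ATAC peak under them 6.22 against 6.84. The summit of that ATAC peak lay a median of 128 bp from the H3K27ac summit, against 113 bp. Peak width and height also bear on whether a KLF5 peak is called or touched, and with 1 peak list for each assay this cannot be told apart from absence of KLF5.

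**Figure D1:**
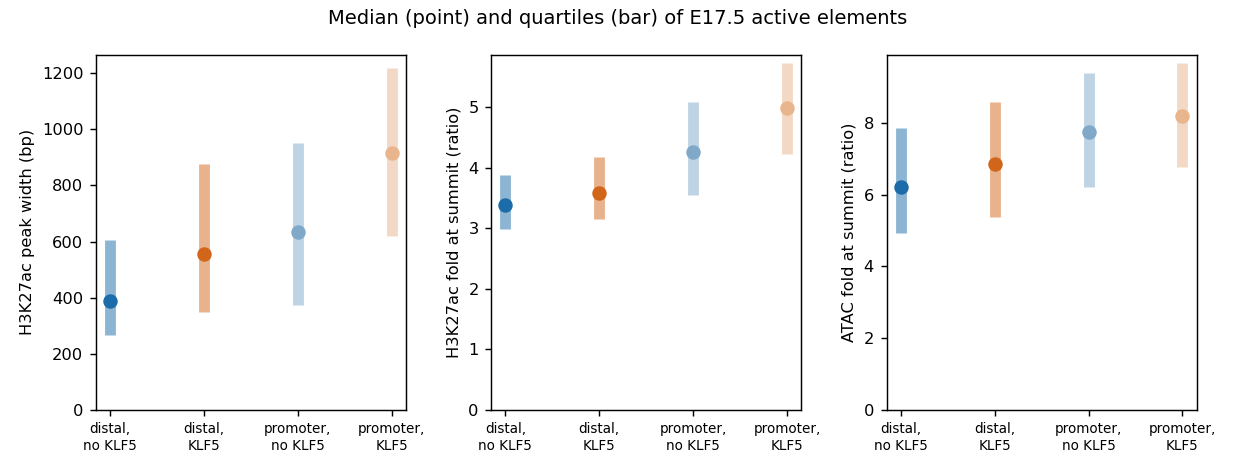
H3K27ac peak width in bp, H3K27ac fold at the summit and ATAC fold at the summit (both ratios, no unit) for 4 classes of open H3K27ac elements at E17.5; points are medians and bars run from the first to the third quartile over elements. Distal elements without KLF5 have the lowest median in each panel (389 bp, 3.38 and 6.22).

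The share without KLF5 was lower at each step up all 3 measures. In quartiles of all 5331 active distal elements it was 75.4, 65.5, 59.1 and 43.8% by H3K27ac width. By H3K27ac fold it was 69.4, 65.0, 57.8 and 51.5%, and by ATAC fold 68.8, 64.0, 57.7 and 53.3%. So the widest quartile was the only one of the 12 in which most elements had a KLF5 peak.

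**Figure D2:**
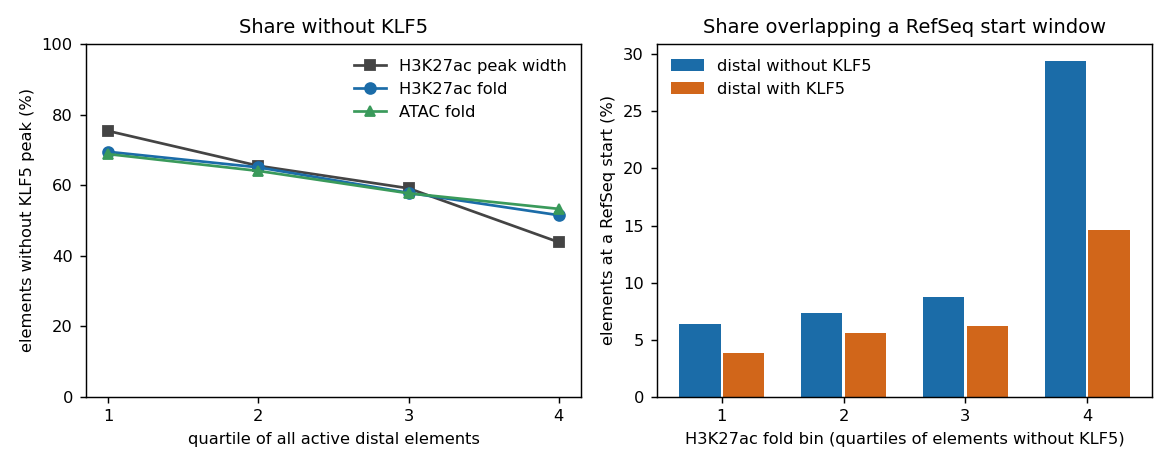
Left, percent of active distal elements without a KLF5 peak in quartiles (1 lowest, 4 highest) of H3K27ac width, H3K27ac fold and ATAC fold. Right, percent of distal elements that overlap a RefSeq start window in 4 bins of H3K27ac fold, without (blue) and with KLF5 (orange); the highest bin reaches 29.4% and 14.6%.

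KLF5 was seldom just outside an element. The gap to the nearest KLF5 peak had a median of 57046 bp and quartiles of 17756 and 168379 bp. A KLF5 peak lay within 1 kb of 137 elements (4.22%), within 10 kb of 543 (16.7%) and within 100 kb of 2076 (63.9%). At the edge of the rule, the 5 elements closest to KLF5 lay 0 to 21 bp from its peak, near C030014I23Rik, Pltp, Fkbp9, Tango6 and 2410137F16Rik. The 5 left out by the smallest overlap shared 1 to 8 bp with it, near Nbeal2, Csta, Morf4l1, Chgb and Lce6a. Their H3K27ac folds overlapped, at 2.48 to 3.13 inside and 2.49 to 3.55 outside. At the edge set by gene starts, summits 1002 to 1005 bp away (near Gm20518, Sms, Lpin2, Ube2e3 and Cdc42ep5) were in, and summits 994 to 1000 bp away (near F11r, Hnmt, Gm10129, Mir1956 and Gm11932) were out.

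Distances to gene starts were alike with and without KLF5. The median was 17434 bp without and 17420 bp with KLF5, and the farthest KLF5-free element lay 563604 bp from any start. Of the KLF5-free elements, 630 lay 1 to 5 kb from a start, 1130 lay 5 to 20 kb, 781 lay 20 to 50 kb, 433 lay 50 to 100 kb and 275 lay beyond. A summit inside a gene body was found for 54.4% (95% Wilson interval 52.6 to 56.1%, counting error only) against 49.0% of the distal elements with KLF5, and inside the body of the nearest gene for 29.9% against 25.9%. The deposited table gives no exons, so exon and intron were not told apart.

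**Figure D3:**
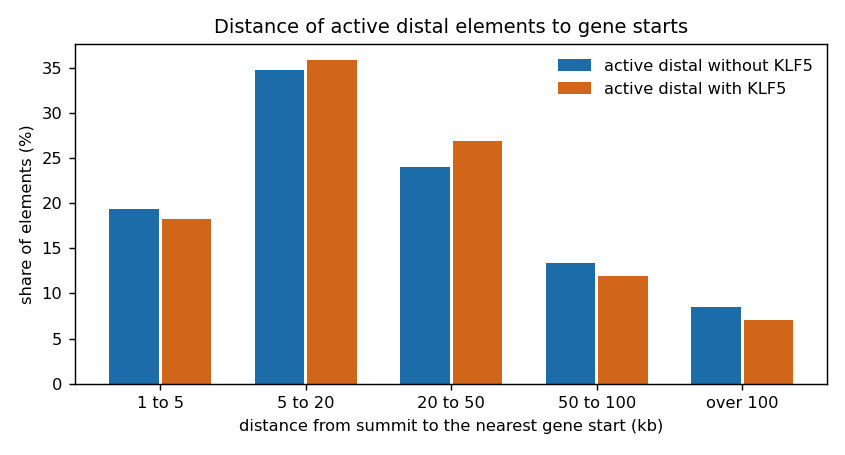
Percent of active distal elements by distance in kb from the H3K27ac summit to the nearest gene start, without (blue, 3249 elements) and with KLF5 (orange, 2082 elements). The 2 sets peak in the same bin, 5 to 20 kb, with 34.8% and 35.8%.

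Most elements had no other KLF5-free distal element within 10 kb. Other H3K27ac peaks were not counted in this grouping. With a gap of at most 10 kb as the link, the elements formed 2928 groups, of which 2647 held 1 element, 245 held 2, 32 held 3 and 4 held 4. The groups of 4 lay near 4933440J02Rik, Ubtf, Adcy9 and Gpr137.

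The strongest elements by H3K27ac fold lay near Gm15730 inside Sri (8.70), Eif2s3x (8.55), Gm11809 (8.29), Pum2 (7.94) and Anp32e (7.47). Eif2s3x encodes a translation initiation subunit and Pum2 an RNA-binding repressor. The strongest by ATAC fold lay near Zfp944 (17.6), inside Egf (16.9), near Gm12586 (16.7), Pum2 (15.8) and Zfp317 (15.5). The element chr12:8640771-8641295 near Pum2 (mm10, between genes, 33169 bp upstream of its start) was in both groups. The Egf element, in the gene of a ligand of the EGF receptor, lay 30076 bp from the deposited Egf start and overlapped a RefSeq start.

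The 3249 elements had 2603 different nearest genes, and 2122 of these had 1 element, 356 had 2 and 125 had 3 or more. Of the 2603 genes, 485 (18.6%) were also nearest to a distal element with KLF5, which is 27.1% of the 1791 genes nearest to those. A KLF5 peak within 1 kb of the start was found for 286 (11.0%). No KLF5 peak lay within 100 kb of the start for 963 (37.0%), against 3.74% of the genes nearest to distal elements with KLF5.

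Nearest genes of KLF5-free elements had moderate RNA levels. Their median level was 1.37, 1.28 and 1.25 RPKM in the 3 Het libraries (1.30 ± 0.06, SD, n = 3) and 1.28, 1.41 and 1.27 RPKM in the KO libraries (1.32 ± 0.08, n = 3). The genes nearest to distal elements with KLF5 had 1.31 ± 0.08 RPKM in Het, which overlaps. Genes with a KLF5-free active promoter had 9.28 ± 0.05 and those with a KLF5-bound one 11.7 ± 0.3 RPKM. Of the genes nearest to KLF5-free distal elements, 51.4% reached 1 RPKM in Het, against 29.9% of all 38887 genes of the table. Bulk RNA cannot tell fewer expressing cells from less RNA per cell.

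Among genes nearest to a KLF5-free element, those with a KLF5-bound distal element or KLF5 at the start had the higher median RNA level. The 1898 genes nearest to a KLF5-free element, with neither a KLF5-bound distal element nor KLF5 at the start, had a median of 0.519, 0.446 and 0.490 RPKM in Het (0.485 ± 0.037, n = 3). The other 705 had 7.00, 6.93 and 6.62 RPKM (6.85 ± 0.20, n = 3). These 705 pool KLF5 at the start with KLF5 at distal elements, and the 2 were not separated. Enough counts for testing at E17.5 were found for 1058 of the 1898 and 529 of the 705. The medians were apart in every library, but the spread over genes was not compared, and single genes of the first group were high (Grhl1, 60.5 RPKM in Het). Genes with 1 KLF5-free element had 1.05 ± 0.005, those with 2 had 2.90 ± 0.29 and those with 3 or more had 2.81 ± 0.53 RPKM (n = 3 libraries).

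The 20 genes with most KLF5-free elements held 4 to 6 each. Ktn1 (kinectin, a membrane anchor of motor proteins) and 4933440J02Rik had 6, and Lmo7 (an actin and junction protein), Zfp619 and Gm24869 had 5. With 4 each followed Serbp1, Sod1, Gnai1, Irx4, Ubtf, Tiam1, Sepp1, Nfkb1, Zzz3, Lef1, Suco, Gpr137, Tgfbr2, Stox2 and 2010111I01Rik. Their Het levels ran from 0 to 205 RPKM with a median of 13.9 RPKM, 12 of the 20 were nearest to no KLF5-bound distal element, and 1, Serbp1, had KLF5 at its start. Of the 18 tested at E17.5, 0 passed the threshold by edgeR, with log2 fold changes of -0.28 to 0.26 and the smallest adjusted p at 0.381.

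Genes of the epidermis were unevenly represented. Of the genes on lists of epidermal function and cell type markers, 58 were nearest to at least 1 KLF5-free element. As background, 10.5% of the 15092 genes tested at E17.5 were nearest to one. Epidermal transcription regulators had 15 of 40 genes with 22 elements (Grhl1, Grhl2, Zfp750, Tfap2a, Satb1 and others). Desmosome and junction genes had 8 of 25, hair placode and follicle genes 8 of 28 with 13 elements, and sphingolipid and barrier lipid genes 8 of 39. Genes of EGF receptor, IGF and Notch signalling had 6 of 24, cell cycle genes 5 of 18, basal keratinocyte genes 3 of 24 and suprabasal genes 3 of 30. None of the 10 melanocyte, 8 Merkel cell, 8 endothelial, 10 immune and 8 skeletal muscle marker genes had one, and 2 of the 13 fibroblast marker genes did. Distal elements with KLF5, nearest to 7.31% of the tested genes, had 13 of the 40 regulators, 8 of the 25 junction, 5 of the 28 hair, 7 of the 39 sphingolipid, 4 of the 24 signalling, 4 of the 18 cell cycle, 7 of the 24 basal and 7 of the 30 suprabasal genes. Whether the element classes differ in these counts was not tested.

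Lef1, the Wnt pathway transcription factor of hair placodes, had the most elements of any listed gene, 4, and no KLF5-bound distal element. Their summits lay at -119202, -117965, -84519 and 1697 bp from its start, the last inside Lef1 and the others between genes (mm10 chromosome 3, gene 131110471 to 131224356, plus strand), with H3K27ac folds of 2.76, 2.46, 4.35 and 2.93. No KLF5 peak lay within 300 kb of the start, where 10 H3K27ac and 24 ATAC peaks were found. Lef1 RNA stood at 12.3, 10.8 and 9.72 RPKM in Het and 12.8, 14.5 and 11.0 RPKM in KO. The groups overlapped, and edgeR gave a log2 fold change of 0.22 with an SE of 0.12 (adjusted p = 0.611). Lef1 in the HFD libraries was at 2.27 and 1.94 RPKM in Het and 1.68 and 2.74 in KO.

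**Figure D4:**
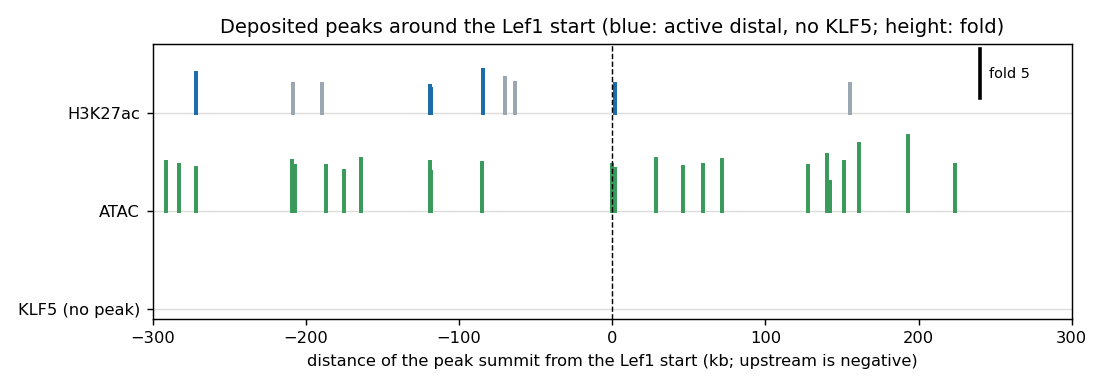
Deposited E17.5 peaks by distance in kb of the summit from the Lef1 start (dashed line; upstream is negative); bar height is the authors' fold, with a scale bar of fold 5. Of 10 H3K27ac peaks 5 are active distal without KLF5 (blue), 1 of them nearer to another gene, and the KLF5 row is empty.

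Other hair genes had fewer. Shh, the hedgehog ligand of the placode, had 2 elements 54341 and 163203 bp upstream, both inside 9530036O11Rik. Edar, the ectodysplasin receptor, had 2 inside the gene, 34297 and 33770 bp from its start, under 1 ATAC peak. Over the 8 hair genes with an element, 0 passed at E17.5 by edgeR, 0 had an unadjusted p under 0.05 and DESeq2 called 0. Their Het levels were 1.21 to 72.9 RPKM.

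Among the regulators, Grhl1, a grainyhead factor of epidermal differentiation, had 3 elements at -35897, -34262 and 21067 bp from its start, the first and second inside the neighbouring gene Taf1b and the last inside Grhl1. Its level was 56.6, 70.3 and 54.6 RPKM in Het and 45.5, 37.4 and 53.8 in KO. All 3 KO values lay below all Het values, but the log2 fold change of -0.41 (SE 0.14) missed the threshold (edgeR adjusted p = 0.327). Zfp750, a terminal differentiation factor, had 3 elements at 3007, -24943 and -25645 bp from its start, all within the body of Tbcd. It was at 48.0, 47.5 and 37.8 RPKM in Het and 38.2, 36.8 and 41.0 in KO, and the groups overlapped (log2 fold change -0.20, edgeR adjusted p = 0.599). Of the 15 regulators 11 had a log2 fold change below 0, with a median of -0.18 against 0.01 over all genes tested. The whole list of 40 had a median of -0.12. None of the 15 passed by edgeR, 4 had an unadjusted p under 0.05, beside 10.0% of all genes, and DESeq2 called 1, where it called 0.862% of all genes higher and 2.32% lower.

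Perp, a desmosomal membrane protein, had 3 elements 15898 to 33265 bp downstream and also KLF5 at its start and at 1 distal element. It was at 1396, 1698 and 1490 RPKM in Het and 1206, 1037 and 1360 in KO. The KO values were all lower, with a log2 fold change of -0.35 (SE 0.13) that missed the threshold (edgeR adjusted p = 0.357). Igf1r, the IGF1 receptor, had 3 elements, of which 1 lay 467 bp from a KLF5 peak. It was at 4.05, 2.50 and 2.27 RPKM in Het and 3.17, 4.80 and 2.58 in KO, which overlapped.

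The sphingolipid and barrier lipid genes bear on the subject of the series. Those with a KLF5-free element were Sptlc3 (a subunit of serine palmitoyltransferase, the entry enzyme), Cers6 (a ceramide synthase), Degs1 (a dihydroceramide desaturase), Asah2 (a neutral ceramidase), Sphk1, Elovl6 (a fatty acid elongase), Abca12 (the lamellar granule lipid transporter) and Sdr9c7 (an oxidoreductase acting on barrier ceramides). Of the 8, 5 had neither a KLF5-bound distal element nor KLF5 at the start, and Sptlc3, Elovl6 and Abca12 had no KLF5 peak within 100 kb. At E17.5, 6 of the 8 had a log2 fold change below 0 (median -0.34, range -0.76 to 0.12). By edgeR 0 passed, with Sdr9c7 at an adjusted p of 0.0557, and 6 had an unadjusted p under 0.05, beside 10.0% of all genes. DESeq2 called 4 (Asah2, Sphk1, Abca12 and Sdr9c7), all with an edgeR log2 fold change below 0. It called 0.862% of all genes higher and 2.32% lower. The 37 tested genes of the whole list had a median of -0.29.

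Comparing KO with Het at E17.5 across all genes, edgeR called 0.0861% of the 15092 tested at an adjusted p under 0.05. Of the 1587 tested genes nearest to a KLF5-free element it called 1, which was higher, where the background of higher calls was 0.0331%, and 0 lower, where it was 0.053%. An unadjusted p under 0.05 was found for 226 of them (14.2%), 153 lower and 73 higher, against 10.0% of all tested genes. For genes nearest to distal elements with KLF5 it was 15.9%. Unadjusted results over all genes were not split by direction, so the 153 and 73 have no background here. The median log2 fold change of the 1587 genes was -0.003 against 0.01 over all genes. DESeq2 called 51 lower (3.29% of the 1550 it tested, beside 2.32% of all genes) and 15 higher (0.968%, beside 0.862%). Without KO replicate 3 edgeR called 70 lower and 16 higher, and without any other single library 0 to 1 in each direction. Over all genes edgeR called 513 without KO replicate 3 and 0 without KO replicate 1, against 13 with all libraries.

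The called gene was Bst1, which encodes the ectoenzyme CD157 found on stromal and immune cells. Its 2 elements lay 36654 and 10829 bp upstream of its start, both inside the neighbouring gene Fbxl5, with folds of 4.99 and 3.36 and no KLF5 peak within 100 kb of the start. Bst1 was at 0.027, 0.050 and 0.071 RPKM in Het (3, 4 and 7 counts) and 1.05, 1.71 and 0.388 RPKM in KO (89, 168 and 35 counts). It rose with a log2 fold change of 4.40 (SE 0.63, edgeR adjusted p = 0.0469), and the call was lost under library totals and without any 1 of 5 of the 6 libraries. The 4 fibroblast markers Col1a1, Col3a1, Dpt and Pdgfra summed to 0.821 to 1.78 RPKM in Het and 2.96 to 6.90 in KO, and the 3 immune markers to 2.04 to 3.05 and 3.05 to 4.22. Their part in the Bst1 result was not tested. The 6 keratinocyte markers summed to 33516 to 41595 RPKM in Het and 23930 to 31264 in KO, but they did not move together. Mean Krt1 was 14774 RPKM in Het and 8071 in KO, and mean Krt10 was 13039 and 8210. Krt5 went from 6196 to 7036, Krt14 from 3918 to 4106, Trp63 from 60.6 to 62.4 and Itga6 from 42.8 to 42.0.

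**Figure D5:**
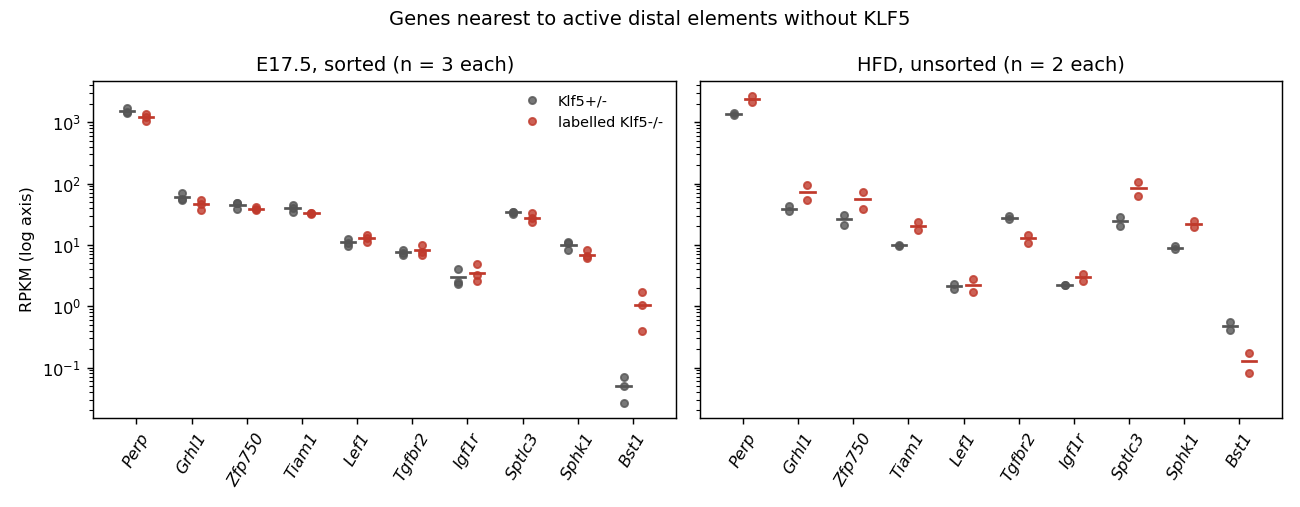
RPKM (log axis) of 10 genes nearest to KLF5-free distal elements in each library of the E17.5 set (left, n = 3 for each genotype) and the HFD set (right, n = 2); points are libraries, lines are means, grey is Klf5+/- and red is labelled Klf5-/-. Bst1 lies at 0.027 to 0.071 in E17.5 Het and at 0.388 to 1.71 in KO, and in the HFD set both KO libraries are above both Het libraries for Sptlc3 and Sphk1.

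In the HFD set, where edgeR called 5.5% of 15848 tested genes, it called 104 of the 1603 tested nearest genes. Of these 47 were higher in KO, against a background of 1.48% higher calls (2.93% here), and 57 lower, against 4.02% (3.56% here). The median log2 fold change was 0.15 against -0.01 over all genes. An unadjusted p under 0.05 was found for 500 (31.2%), against 27.1% of all tested genes. Genes nearest to distal elements with KLF5 had 3.70% higher and 2.62% lower calls, with a median log2 fold change of 0.22. For the genes nearest to KLF5-free elements the split turned with the scaling. Library totals, which moved the median of all genes to -0.23, gave 19 higher (1.19%, beside 0.871% of all genes) and 104 lower (6.49%, beside 7.58%). DESeq2 gave 245 higher (15.3%, beside 7.29%) and 128 lower (7.99%, beside 11.0%). Leaving out 1 library leaves 1 sample in its group, which is then assumed to vary like the remaining pair. Without either KO library all 104 calls remained in the same direction, without Het replicate 1 only 1 did and without Het replicate 2, 0.

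The 10 genes that rose most in the HFD set were Gm757 (log2 fold change 1.87), Sptlc3 (1.80), Sfn (1.60), Prrg4 (1.59), Defb1 (1.55), Sult2b1 (1.44), Abhd6 (1.38), Ppif (1.35), Dusp14 (1.33) and Dsp (1.33). Sfn encodes 14-3-3 sigma of differentiating keratinocytes, Defb1 a defensin, Sult2b1 a cholesterol sulfotransferase and Dsp desmoplakin. Sptlc3 was at 19.9 and 28.7 RPKM in Het and 63.5 and 106 in KO (SE 0.31, edgeR adjusted p = 0.041). At E17.5 it was at 32.2, 34.7 and 34.6 RPKM in Het and 27.1, 23.7 and 32.7 in KO. Sphk1 was at 9.63 and 8.45 RPKM in HFD Het and 19.7 and 24.6 in KO (log2 fold change 1.29, SE 0.19, edgeR adjusted p = 0.0342). At E17.5 it was at 10.6, 11.0 and 8.29 RPKM in Het and 6.59, 6.10 and 8.13 in KO. In both sets the KO and Het values of Sphk1 did not overlap, in opposite directions. The KO against Het change was also compared between the sets, as the log2 fold change in HFD minus that at E17.5. This difference was 1.83 for Sphk1 (SE 0.24, edgeR adjusted p = 0.00272) and 2.10 for Sptlc3 (SE 0.31, edgeR adjusted p = 0.00357). By that test the KO against Het change of 348 of the 1693 nearest genes in the joint fit differed between the sets. The share over all 17260 genes was 14.7%. The change was higher in the HFD set for 239 of the 1693 (14.1%), against 7.07% of all genes. It was lower for 109 (6.44%), against 7.61%. Genes nearest to distal elements with KLF5 had 16.0% higher and 4.90% lower by the same test. The sets differ in sorting and preparation, which cannot be told apart from stage or condition.

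Of the listed genes with an element, 6 of 58 rose in the HFD set and 0 fell by edgeR, beside 1.48% and 4.02% of all tested genes, and 33 had an unadjusted p under 0.05, beside 27.1%. The whole lists, with or without an element, gave 8 higher of 39 sphingolipid, 7 of 25 desmosome and junction and 6 of 40 regulator genes. The whole suprabasal list gave 7 higher of 29 tested, with a median log2 fold change of 1.07. Each of these lists had 0 lower. The remaining whole lists had 0 higher. Lower calls there were 4 of 24 signalling, 3 of 27 hair and 1 of 24 basal keratinocyte genes. Among cell type markers they were 3 of 8 endothelial, 2 of 13 fibroblast and 1 of 9 immune genes. Of the 3 suprabasal genes with an element edgeR called 0. The sphingolipid genes gave 3 (Sptlc3, Sphk1 and Sdr9c7) of 8. All 8 log2 fold changes were above 0, with a median of 0.99, beside 0.83 over the whole list. Of the desmosome and junction genes, Dsp and Pkp3 (plakophilin 3, a desmosomal plaque protein) were among those that rose. The 8 with an element had a median log2 fold change of 1.02, beside 0.95 over the whole list. Tiam1, an activator of the GTPase Rac, also rose (log2 fold change 1.05, edgeR adjusted p = 0.0466, 10.1 and 9.72 RPKM in Het, 17.2 and 23.9 in KO). Tgfbr2, a receptor of TGF-beta, fell by 1.12 on the log2 scale (edgeR adjusted p = 0.0415), from 26.5 and 29.2 RPKM to 14.7 and 10.9. Under library totals Sptlc3, Sphk1 and Tgfbr2 were still called, while Dsp, Tiam1, Prrg4 and Ppif were not (adjusted p 0.0512 to 0.0671).

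The genes that fell most were at low levels in sorted E17.5 epithelium. They were Gm10309, Prg4 (lubricin), Mc2r (the ACTH receptor), Bmper (a BMP modulator), Esr1 (an oestrogen receptor), Podn (a matrix proteoglycan), Sh2d3c, Scarf2, Cldn15 and Aldh1a1 (a retinal dehydrogenase), with log2 fold changes from -4.35 (Prg4) to -2.35 (Aldh1a1) for the 9 with counts in every HFD library. Gm10309 had 36 and 24 counts in HFD Het and 0 in both KO libraries. Their E17.5 Het means were 0.0019 (Bmper) to 0.968 (Aldh1a1) RPKM. Prg4 had 303 and 300 counts in HFD Het and 11 and 16 in KO. The 4 fibroblast markers summed to 1660 and 1962 RPKM in HFD Het and 427 and 48.7 in KO. The 3 endothelial markers summed to 41.9 and 47.6 against 8.06 and 1.88 RPKM, the 3 muscle markers to 71.3 and 24.6 against 22.5 and 1.45, and the 6 keratinocyte markers to 12766 and 10567 against 22785 and 24100. No marker list summed to 0 in any HFD library. The 3 immune markers summed to 13.9 and 14.3 RPKM in HFD Het and 18.7 and 13.7 in KO. The 4 melanocyte markers summed to 79.1 and 59.9 against 94.4 and 50.3 RPKM. In both of these lists the genotypes overlapped. The fibroblast, endothelial, muscle and keratinocyte levels moved with the lower and the higher calls, and their part in the calls was not tested.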

How the data were processed

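RNA was analysed in 6 E17.5 and 4 HFD libraries and peaks in 3 E17.5 samples. The authors deposited raw read counts per gene, and the submitters' processing notes name STAR 2.6.0b, HTSeq and mm10. RPKM values deposited by the authors in the HFD files were not used, and RPKM here was computed from the counts with the exon lengths of those files. Per the submitters' processing notes, MACS2, Bowtie2 2.2.3 and Bowtie 1.0.1 were used. The sources used here do not give the control or threshold of the peak calls. The deposited peak lists give a fold enrichment (a ratio), −log10 p and −log10 q, and an integer score that was not used. An IgG sample and the HaCaT lists were not analysed here.

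The deposited H3K27ac, ATAC and KLF5 lists held 18155, 41905 and 6472 peaks. Peaks outside chromosomes 1 to 19, X and Y were left out. Nearest genes are by start in the deposited HFD gene table. The members and gene lists were chosen with earlier results of these data known. Each RNA set was fitted alone with edgeR 4.0.16 (R 4.3.3): TMM scaling, filterByExpr, quasi-likelihood test, Benjamini-Hochberg adjustment over all genes tested and a threshold of 0.05, checked on simulated data. SE is the log2 fold change divided by the square root of F. RPKM used TMM-scaled library sizes, so levels of the sets are not on 1 scale. Reads naming no gene (13.4 to 16.9% of each library) were left out. DESeq2 1.42.0 was an alternative. Named genes were the 20 with most elements (ties by Het level), genes called at E17.5, the 10 largest called changes each way in the HFD set, list genes with at least 3 elements, and the 5 strongest elements by each fold. Sphk1, Runx1, Shh, Edar, Dcn, Klf5, the sphingolipid and junction genes with 1 or 2 elements, and the printed sequences were chosen after their values were seen. Motif shares planned on the elements' own sequence were taken on RefSeq start windows instead, a choice made after seeing the data, because no genome was used here. To compare the sets, 1 edgeR model over the 10 libraries gave the HFD minus E17.5 contrast. The result of 1 gene is not reported here.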

Additional observations from a re-analysis of the deposited data

Results flagged for a closer look

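For 22 of the 43 named genes in the joint fit, the KO against Het difference differed between the 2 RNA sets by a test of the difference itself (edgeR contrast, HFD minus E17.5, adjusted p under 0.05). Of the 22, 15 had been named because they were called in 1 of the sets (Bst1 at E17.5 and 14 with the largest called changes in the HFD set), so a difference was favoured by the choice, and the count is not set against the share over all genes. The sets differ in sorting, preparation and possibly stage, which cannot be told apart from each other. The HFD minus E17.5 differences in log2 fold change above 0 were Sult2b1 2.38, Sptlc3 2.10, Sfn 1.83, Abhd6 1.74, Prrg4 1.64, Dsp 1.56, Tiam1 1.34, Grhl1 1.33, Ppif 1.32, Zfp750 1.31, Dusp14 1.31, Defb1 1.23, Perp 1.19, Lmo7 0.72. Those below 0 were Bst1 -6.35, Bmper -4.86, Prg4 -4.49, Esr1 -3.69, Sh2d3c -3.40, Scarf2 -2.31, Tgfbr2 -1.22, Sod1 -1.01. Each set's own fold changes are given for a few. Bst1 had a log2 fold change of 4.40 at E17.5 and -1.96 in the HFD set. Sult2b1, which sulfates cholesterol in the upper epidermis, had -0.93 at E17.5 and 1.44 in the HFD set. Sptlc3 had -0.28 and 1.80. Of the list genes with at least 3 elements, Grhl1 had -0.41 and 0.91, Perp -0.35 and 0.83, and Zfp750 -0.20 and 1.09, and edgeR called none of these 3 in either set alone. DESeq2 called all 3 in the HFD set (adjusted p 0.0236 for Grhl1, 0.000371 for Perp and 0.0186 for Zfp750) and none at E17.5. The DESeq2 call rates of the sets also differed over all genes. They were 7.29% higher and 11.0% lower in the HFD set, against 0.862% and 2.32% at E17.5.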

How the results depend on the processing

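The number of elements was 3249 and fell to 2012 when H3K27ac peaks needed a −log10 q of at least 5 and to 1923 when at least 50% of an ATAC peak had to lie inside. The share inside a gene body was 51.2% beyond 5 kb from starts and, in an alternative chosen after seeing the data, 50.8% without elements at RefSeq starts. The median Het level of nearest genes was 1.82 RPKM under either of the first 2 settings, 1.39 with ATAC peaks of −log10 q of at least 5, 0.901 beyond 5 kb, 0.934 without elements at RefSeq starts and 7.08 when the nearest gene was taken among tested genes only. At E17.5 the higher calls among nearest genes (1) became 15 with DESeq2, 0 under library totals and 5 without a filter, and 0 to 16 leaving out 1 library. The lower calls (0) became 51 with DESeq2, 28 without a filter, 3 among tested genes only and 3 with the replicate block, and 0 to 70 leaving out 1 library. In the HFD set the higher calls (47) became 245 with DESeq2, 19 under library totals, 188 without a filter and 133 with the replicate block, and 0 to 398 leaving out 1 library. The lower calls (57) became 128, 104, 116 and, among tested genes only, 87, and 1 to 191 leaving out 1 library. For same-numbered Het and KO libraries, the deviations of log CPM from the group mean were correlated, not the levels themselves. The correlations were 0.026, -0.102 and 0.176 at E17.5 and 0.185 in the HFD set, so the numbers were not taken as pairs. With 2 libraries in each HFD group, both pairs give the same value by construction. Leaving out 1 library, edgeR called 0 to 12 list genes at E17.5 and 0 to 34 among HFD libraries. Motif shares moved to 54.3% (200 bases) and 44.4% (45 to 55% GC) for the GC box, 4.41% (200 bases) for GGGTGTG and 11.1% (45 to 55% GC) for AP-1. The log2 fold change of Igf1r at E17.5 ran from -0.035 without KO replicate 2 to 0.56 without Het replicate 1. The causes were not tested. At these depths 3 counts were 0.0646 (deepest library) to 0.0943 CPM.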

Other observations

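Dcn, which encodes the matrix proteoglycan decorin and is usually read as a fibroblast gene, stood at 180 to 286 RPKM over the 6 sorted E17.5 libraries. In the same libraries Col1a1 was at 0.173 to 1.76 RPKM and Col3a1 at 0.607 to 4.26 RPKM. Dcn was nearest to 2 KLF5-free distal elements, 166226 and 259566 bp upstream of its start, the former 1164 bp wide, and no KLF5 peak lay within 100 kb of the start. Fbln1 was the other fibroblast marker gene with an element, and its Het level was 41.5 RPKM.

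The 4 elements of the group near Gpr137 lay within 1503 bp and had folds of 2.37 to 2.92. The group of 4 near Ubtf, which encodes a factor of ribosomal RNA transcription, spanned 9884 bp inside the gene, with folds of 2.36 to 4.42. Neither gene was nearest to a distal element with KLF5.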
